A study of Mus musculus with 24 samples.

Results

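The 12 SMARTseq libraries of mouse kidney RNA, 6 started from 10 ng and 6 from 100 pg of total RNA, were compared with each other. They were chosen by their labelled kit and input amount and are 12 of the 24 samples of the series. All came from 1 RNA preparation, isolated with Trizol and DNase-treated, from the left kidney of an adult female F1 mouse of the cross 129S1/SvImJ x CAST/EiJ without drug treatment. The kit, SMART-Seq v4, primes polyadenylated RNA with oligo-dT, switches template at the end of first-strand synthesis and amplifies the full-length cDNA by PCR, so that the input decides how many RNA molecules enter that amplification. Replicates are library preparations of 1 RNA, so p-values measure the spread between preparations and not between animals. The paper describes each input as its own set of 6 libraries made in parallel. Input and preparation set therefore cannot be told apart in any difference given here. A further 6 libraries of the same RNA, made with the NEBNext kit from 100 ng, served only to sort genes by abundance.

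An F1 mouse carries a distinct chromosome set from each parent, and reads over SNPs can be assigned to an allele. Allelic imbalance (AI) is the share of a gene's allelic counts that is maternal. When few molecules of an RNA are copied into cDNA, by textbook expectation a gene can be missed altogether, or only molecules of one allele may be copied although both are expressed. The kidney is a mixture of nephron segments with strong and well known markers, from the solute transporters of the proximal tubule to the water channels of the collecting duct, and of rarer podocytes, vessels and immune cells.

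Counts were the maternal and paternal values of each gene added together. The 6 library totals of allelic counts ran from 6360257 to 6397679 at 10 ng and from 6587951 to 6616994 at 100 pg, and the maternal share of all counts from 48.0% to 48.1% and from 48.1% to 48.3%. No library repeated another, since the chi-square per degree of freedom between replicates was at least 2.15. The common coefficient of variation beyond counting error, the square root of edgeR's common dispersion over 11690 genes, was 5.85% at 10 ng and 23.7% at 100 pg. It leaves out the counting error that the observed spread between libraries, given below, includes. The defining markers of kidney were present in both groups. All 22 proximal tubule markers with a count, all 10 of the thick ascending limb and all 13 of the podocyte had a count in each of the 12 libraries.

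Fewer genes were detected at 100 pg, and the loss lay among genes of low count. At least 1 allelic count was found for 15871 ± 28.8 genes per library at 10 ng and 14831 ± 86.8 at 100 pg (mean ± SD, n = 6 each; two-sided exact permutation test, p = 0.00216, the smallest that 6 against 6 libraries allow). The libraries ranged from 15841 to 15922 and from 14685 to 14946 genes, without overlap. At a minimum of 3 counts the means were 13938 and 13611 genes (exact permutation test, p = 0.00216). At 10 counts they came close, with 11710 ± 18 and 11747 ± 30.1 genes (exact permutation test, p = 0.0303). This small excess at 100 pg had a p of up to 0.0606 in the exact permutation test without single libraries, and the mean difference was -17.3 genes once counts were thinned to 6360257 per library. At 100 counts more genes were found at 100 pg, 6356 ± 17.5 against 6219 ± 23.7 (exact permutation test, p = 0.00216). Over all 6 libraries together, 18863 genes had a count at 10 ng and 17978 at 100 pg, of which 13566 and 12399 had one in every library.

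Gene dropout, a gene with 0 counts of both alleles in a library, was set against abundance in the NEBNext libraries, which do not enter the comparison. Among 1720 genes with a NEBNext mean of 2 to 5 counts, 31.5% ± 0.895 were at 0 in a 10 ng library and 46.4% ± 1.18 in a 100 pg library (SD, n = 6 each). The shares were 13.6% ± 0.840 and 27.6% ± 1.5 of 1168 genes at 5 to 10 counts, and 2.89% ± 0.133 and 9.38% ± 1.00 of 1952 genes at 10 to 30 counts. They were 0.138% ± 0.0725 and 0.991% ± 0.390 of 2894 genes at 30 to 100 counts. In each of these 4 classes the libraries of both inputs did not overlap and the difference had an exact permutation p of 0.00216 (0.00379 after Benjamini-Hochberg adjustment over 7 classes). With classes taken from the SMARTseq libraries themselves, the difference at 30 to 100 counts was 0.0624 percentage points (exact permutation p = 0.0606). From 100 to 300 counts none of 3443 genes was at 0 in a 10 ng library, which allows a share of up to 0.0871% per library by counting error only, and 0.0194% ± 0.0352 were at 0 at 100 pg, a difference that could not be told from 0 (exact permutation p = 0.455). No gene with 300 counts or more was missed in any library.

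**Figure D1:**
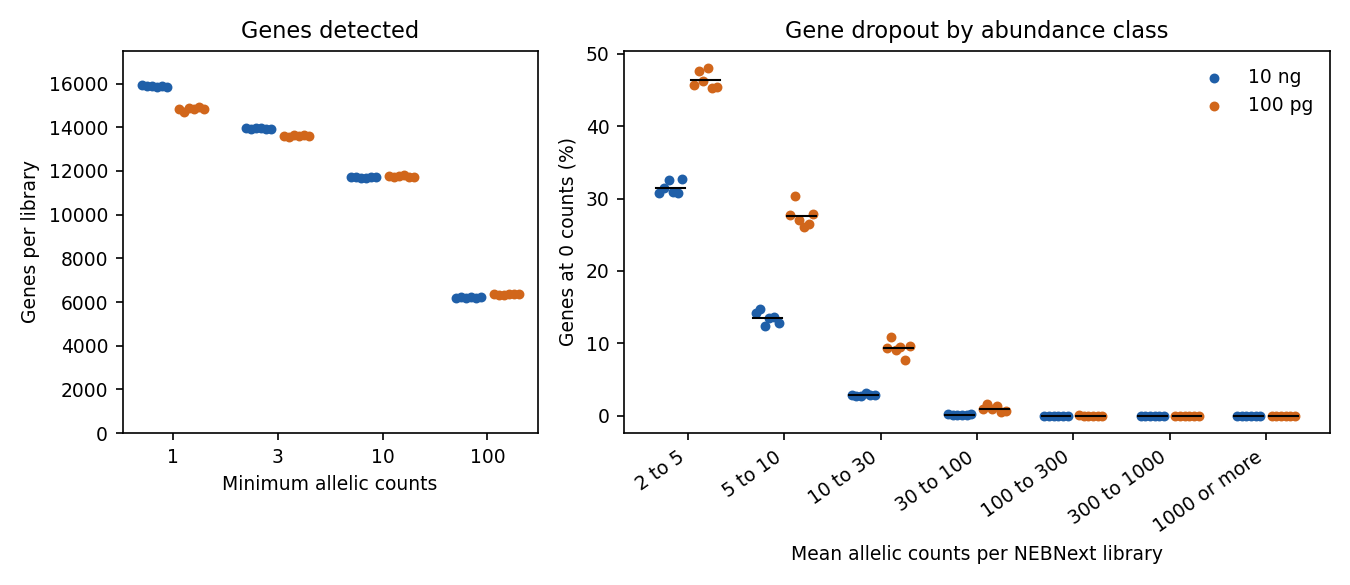
Genes per library with at least 1, 3, 10 or 100 allelic counts (left), and the percentage of genes with 0 counts by class of mean NEBNext count (right). Each point is 1 library, blue for 10 ng and orange for 100 pg, and black lines are means of 6 libraries. Orange points lie above blue ones in the 4 lowest classes, from 46.4% against 31.5% at 2 to 5 counts to 0.991% against 0.138% at 30 to 100 counts.

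Of the 13566 genes with a count in every 10 ng library, 356 (2.62%) were at 0 in at least 3 of the 100 pg libraries, 167 in at least 4 and 14 in all 6. In the reverse direction the counts were 23, 3 and 0 genes. Without any one of the 100 pg libraries, 85 to 97 genes were at 0 in at least 4. Loss followed the count at 10 ng. It took 44.6% of 65 genes with a 10 ng mean under 2 counts, 25.5% of 749 at 2 to 5, 9.78% of 1115 at 5 to 10, and 0.232% of 11637 at 10 or more. The 356 genes had a median 10 ng mean of 4.17 counts. Protein coding genes made up 72.2% of them and 90.6% of all 13566, but among genes with 10 ng means of 2 to 10 counts the lost share was 16.3% of 1332 protein coding genes and 15.6% of 532 others. In that same range, with genes split into 3 equal bins by transcript GC content, 19.0% of the lowest bin were lost and 11.4% of the highest. These shares are descriptions, without a test.

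The genes lost from the highest 10 ng counts were mostly still abundant in single 100 pg libraries. Gnpda2, a glucosamine-6-phosphate deaminase (chr5:69573108-69592340), had 21 to 46 counts at 10 ng (median 36). At 100 pg it had 42, 0, 0, 12, 12 and 0 counts in replicates 1 to 6, and its fold change did not pass the test (log2 -1.73 ± 0.70 SE, edgeR adjusted p = 0.11). Paqr3, a Golgi membrane protein, had 7 to 26 counts at 10 ng and 0, 0, 80, 0, 10 and 20 at 100 pg, so that its group means were close (19.7 and 18.3). Klhl31 had 6 to 34 counts at 10 ng and 9, 0, 2, 52, 0 and 0 at 100 pg. Scara5, a ferritin receptor, had 8 to 18 counts and then 0, 0, 30, 0, 0 and 31. Milr1, an immunoglobulin-like receptor of mast cells, had 7 to 20 counts at 10 ng and 0, 3, 0, 0, 9 and 23 at 100 pg. In each of these 5 genes the highest 100 pg library reached or passed the 10 ng median while others had none. Gcnt3, Mtus2, Fut10 and the immunoglobulin segment Igkv3-2 had the same pattern, with 3 or 4 libraries at 0 and a highest 100 pg count of 23 to 46. The exception among the 10 was ENSMUSG00000093098, a gene without a symbol or position in the files, with 17 to 35 counts at 10 ng and 0, 0, 1, 0, 4 and 1 at 100 pg. It was lower at 100 pg by log2 -4.52 ± 0.57 SE (edgeR adjusted p = 1.9e-05). Of the 9 genes given here that were gained at 100 pg with the highest counts, 7 were processed pseudogenes. Reads that match such a gene and its parent gene equally were left out. The others were Gas7 and Rfx5, and none of the 9 had a mean above 6.33 counts in either group.

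Allele dropout, one allele at 0 with the other present, was counted over 13341 genes that were biallelic in the NEBNext libraries (pooled AI from 0.2 to 0.8). A 10 ng library had 855 to 932 such genes and a 100 pg library 1241 to 1317 (exact permutation p = 0.00216). Among genes with at least 10 counts in the library, 40 to 53 genes per 10 ng library and 319 to 378 per 100 pg library had only one allele (exact permutation p = 0.00216). The missing allele was the maternal one in 47.6% to 49.9% of all one-allele genes at 10 ng and in 47.5% to 50.9% at 100 pg (exact permutation p = 0.143).

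With the minimum of 10 counts, the one-allele share at NEBNext means of 10 to 30 was 1.7% ± 0.167 at 10 ng and 12% ± 0.699 at 100 pg (SD, n = 6 each; exact permutation p = 0.00216, adjusted 0.00303). Binomial sampling at the observed counts and the NEBNext AI would give 0.228% and 0.185%. Such shares take counts as independent, although a read over several SNPs counts at each, so they can be too low. In the class of 30 to 100 the shares were 0.255% ± 0.0636 and 3.93% ± 0.365, with binomial shares of 0.0290% and 0.0307%. At 100 to 300 they were 0.0150% ± 0.0252 and 0.376% ± 0.155, and both classes had the same exact permutation p of 0.00216. The lowest classes reached 25.6% ± 2.66 at 100 pg against 6.40% ± 2.91 (2 to 5 counts) and 21.4% ± 2.33 against 5.32% ± 1.23 (5 to 10 counts). The minimum holds per library, so these genes enter only where their count exceeds their NEBNext mean, and they differ between libraries. On average 156.7 of 1079 genes entered at 100 pg and 126.5 at 10 ng (2 to 5 counts). At 5 to 10 counts 290.7 and 266.3 of 918 did. The contrast in these 2 classes is shaped in part by that choice. From 300 to 1000 counts a single case was seen, in 100 pg replicate 5, and none of 1129 genes at 1000 or more lost an allele in any library. Without the minimum, the share at 2 to 5 counts was lower at 100 pg, 32.5% ± 0.845 against 34.6% ± 1.62 (exact permutation p = 0.0152), in the class where 46.4% of genes had no counts at all. This difference did not pass with a narrower biallelic window and changed sign with classes taken from the SMARTseq libraries themselves.

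**Figure D2:**
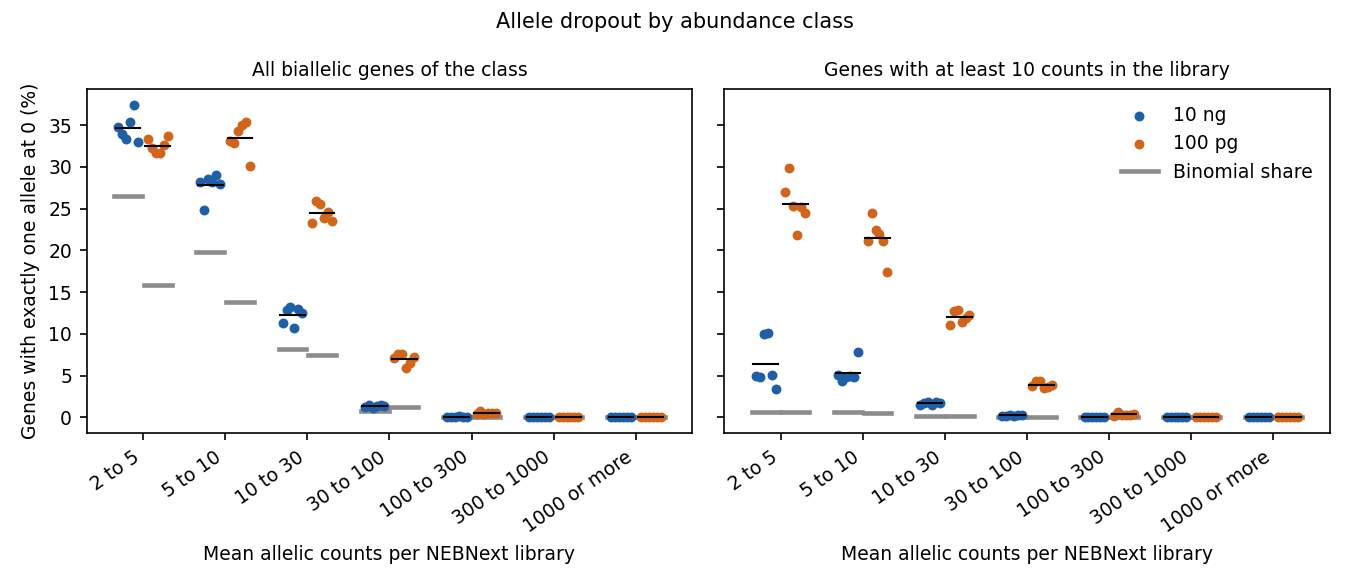
Percentage of biallelic genes with exactly one allele at 0 counts, by class of mean NEBNext count, for all genes of the class (left) and for those with at least 10 counts in the library (right). Points are libraries, black lines means of 6 and grey bars the mean share expected from binomial sampling. On the right the 100 pg libraries stand at 12% for 10 to 30 counts and 3.93% for 30 to 100 counts, against 1.7% and 0.255% at 10 ng.

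Single genes could lose either allele. Over the 6 libraries, 240 genes at 10 ng and 1432 at 100 pg had a one-allele library with at least 10 counts. Of the 1432, 432 had it in at least 2 libraries, and in 166 of these the maternal allele was missing in one library and the paternal in another. At 10 ng 34 genes had it more than once and 0 lost both alleles in turn. Pooling the 6 libraries recovered both alleles in 98.8% of the 240 genes and 93.1% of the 1432. The largest one-allele count was 115 at 10 ng and 158 at 100 pg. In all, 784 genes had both alleles in every 10 ng library and only one in a 100 pg library of at least 10 counts, and 21 genes the reverse.

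The 10 genes of the 784 with the highest 10 ng counts were looked at singly. Trim16, a tripartite motif protein (chr11:62820231-62850808), had an AI of 0.34 to 0.43 at 10 ng. At 100 pg its AI was 0.53, 0.44, 0.83, 0.52, 0.67 and 0.00, and its counts were 241, 9, 52, 25, 203 and 50. Lama1, the laminin alpha 1 chain of basement membranes, had an AI of 0.42 to 0.55 at 10 ng and of 0.00 to 0.64 at 100 pg, with all 68 counts of replicate 5 paternal. Smug1, a uracil-DNA glycosylase of base excision repair, went the other way, with all 75 counts of 100 pg replicate 2 maternal and an AI of 0.37 to 0.65 at 10 ng. Pars2, the mitochondrial prolyl-tRNA synthetase, had an AI of 0.00 in 100 pg replicate 1 and 0.92 in replicate 4, against 0.42 to 0.74 at 10 ng. Cyp4v3, a fatty acid hydroxylase, had 0.00 in replicate 3 and 0.79 in replicate 2, against 0.35 to 0.49. Zfp942 and the long non-coding Gm5113 each lost the maternal allele once. Snx31, Gm12501 and Ighg2b were already skewed at 10 ng, with mean AI of 0.20, 0.14 and 0.19. Gm12501 is a processed pseudogene and Ighg2b an immunoglobulin constant region. For both, reads that match near copies equally were left out, so their values are uncertain.

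The median spread of counts between replicate libraries was wider at 100 pg at every abundance. Over 12006 genes with a NEBNext mean of at least 10, the median SD of log2 CPM (counts scaled to library size) was 0.179 at 10 ng and 0.301 at 100 pg, a ratio of 1.68, and 84.7% of genes had the larger SD at 100 pg. By class the ratio was lowest, 1.29, at 2 to 5 counts and highest, 1.83, at 1000 or more, where the SDs were 0.0492 and 0.0898. The median SD of AI over 9441 genes was 0.0501 and 0.0841, a ratio of 1.68, where binomial sampling gives 0.0394 and 0.0391. At 1000 counts or more the SD of AI was 0.0165 and 0.0290. Eif2ak3, an endoplasmic reticulum stress kinase, was the gene whose spread grew most among those with at least 100 counts. It had 238 to 294 counts at 10 ng and 60 to 365 at 100 pg. Snx33 went from 84–114 counts to 34–200, and Myo5c, an unconventional myosin, from 112–166 to 43–185. B330016D10Rik and Ipcef1 followed. The means of these 5 genes did not pass the test (edgeR adjusted p of 0.56 to 0.88).

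Mean abundance shifted in a minority of genes. Of 11690 genes tested with edgeR's quasi-likelihood test, 1033 (8.84%) were higher and 816 (6.98%) lower at 100 pg at an adjusted p under 0.05. The median log2 fold change of all tested genes was -0.00. Most shifts were small, with a median size of 0.42 on the log2 scale among genes called, and 72 genes (0.616%) rose and 48 (0.411%) fell by at least 2-fold. The CPM ranges of both inputs did not overlap in 1076 genes (9.2%), of which 1026 (8.78% of those tested) were called. The share called grew with abundance, from 3.71% higher and 2.09% lower at NEBNext means of 30 to 100 to 25.3% and 22.8% at 1000 or more, where the median size of change was smaller (0.12 against 0.21) and the median SE was 0.04 against 0.23.

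The shifts moved with the GC content of the transcript, the share of G and C bases. GC was taken from the longest transcript of each gene in GENCODE vM21, a coding one where there was one, and known for 11603 of the tested genes. They were split into 10 bins of equal size. In the bin with the lowest GC (32.9% to 42.2%), 1.03% were called higher and 9.47% lower, with a median log2 fold change of -0.10. In the bin with the highest GC (58.0% to 73.5%), 25.8% were higher and 2.84% lower, with a median of 0.25. Each step up from the third bin had a larger share called higher. Per library, the median log2 ratio to the 10 ng mean of the top bin minus that of the bottom bin was 0.279 to 0.372 in the 100 pg libraries and -0.035 to 0.045 in the 10 ng libraries (difference 0.329, exact permutation p = 0.00216). Across genes the correlation of log2 fold change with GC was 0.33 (Pearson) and 0.36 (Spearman), a description, since genes share libraries and are not replicates. The same contrast for transcript length was -0.022 and -0.002 (exact permutation p = 0.221). A contrast of the end bins cannot show a peak between them. By length, 2.84% of the shortest bin, 14.2% of the fourth and 6.29% of the longest were called higher. With 3 bins of each, within the longest transcripts the share called higher ran from 1.55% at low GC to 22.1% at high GC. Within the shortest it ran from 1.3% to 15.6%. From short to long transcripts the median log2 fold change went from -0.04 to -0.12 at low GC and from 0.06 to 0.26 at high GC. With a curve on GC removed from each library, 783 genes were higher and 742 lower, and 1119 of the 1849 calls remained. The looks at GC and length were chosen after the data were seen.

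**Figure D3:**
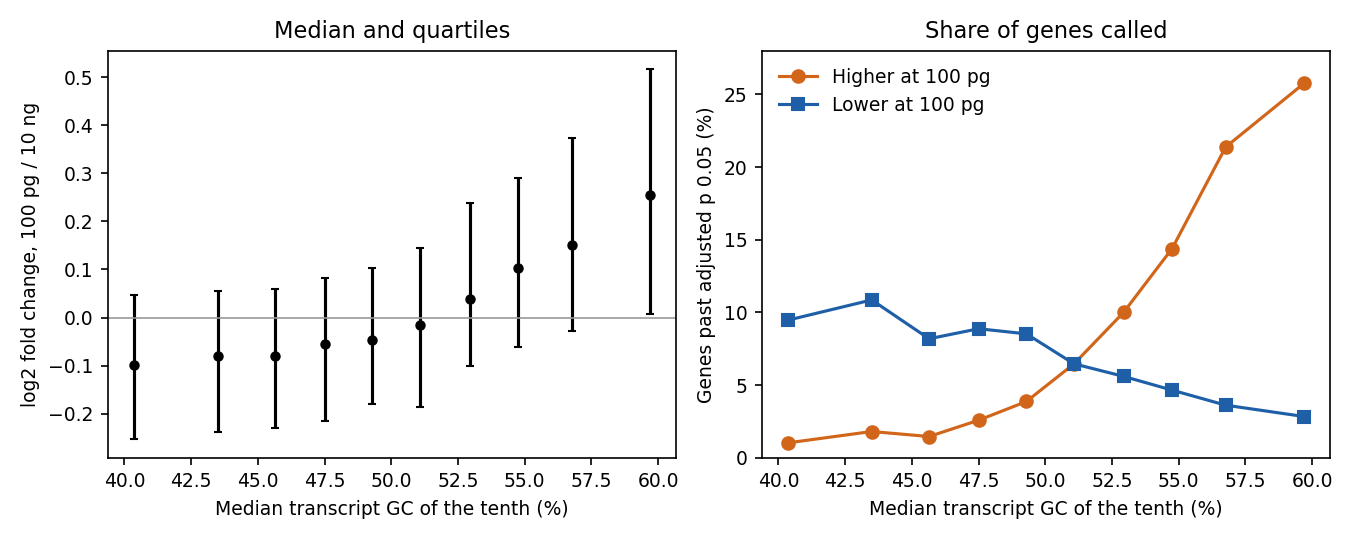
Genes in 10 bins of transcript GC content, plotted at the median GC of the bin. Left, median log2 fold change of 100 pg against 10 ng with bars for the quartiles over genes. Right, percentage of genes past an edgeR adjusted p of 0.05. The median runs from -0.10 to 0.25, and the share called higher from 1.03% to 25.8%.

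The base composition of genes with the largest rises and falls is illustrated by stretches picked for their GC content. The contrast between these stretches was fixed by that choice. Stretches of 90 bases from the middle of the longest coding exon segment are printed here for the named risers with the highest GC and the named protein coding fallers with the lowest, from GENCODE vM21 on GRCm38, 5′ to 3′ on the coding strand, with G and C in capitals. Map1s lies at chr8:70913905-70913994 on the plus strand in exon 5 of 7, and Tesk1 at chr4:43447009-43447098 on the plus strand in exon 10 of 10. Bmpr1b lies at chr3:141856452-141856541 on the minus strand in exon 8 of 11, and Marf1 at chr16:14152324-14152413 on the minus strand in exon 3 of 27.
Map1s: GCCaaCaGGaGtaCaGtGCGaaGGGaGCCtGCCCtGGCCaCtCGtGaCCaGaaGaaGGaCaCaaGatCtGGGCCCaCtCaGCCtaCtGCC
Tesk1: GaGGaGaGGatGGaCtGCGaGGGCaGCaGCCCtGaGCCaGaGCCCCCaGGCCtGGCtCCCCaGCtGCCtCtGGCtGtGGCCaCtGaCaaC
Bmpr1b: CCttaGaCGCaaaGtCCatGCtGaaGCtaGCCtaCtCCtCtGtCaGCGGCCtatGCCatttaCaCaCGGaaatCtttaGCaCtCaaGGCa
Marf1: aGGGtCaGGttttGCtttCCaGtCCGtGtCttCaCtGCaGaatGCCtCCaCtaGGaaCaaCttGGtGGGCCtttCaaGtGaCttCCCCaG
G or C took 55 and 62 of the 90 bases in Map1s and Tesk1, and 45 and 47 in Bmpr1b and Marf1. The whole transcripts held 64.1%, 62.6%, 42.2% and 45.4% G and C. Among all named fallers the share ran from 42.2% in Bmpr1b to 71.2% in the pseudogene Gm12895.

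Tesk1, a kinase of the actin-regulating cofilin pathway (chr4:43441939-43448064), had 30 to 41 counts at 10 ng (median 33.5) and 83 to 136 at 100 pg (median 101). It rose by log2 1.61 ± 0.16 SE (edgeR adjusted p = 1.07e-06), the largest rise by the rule for named genes, which asked for a mean of at least 50 counts in the higher group and CPM ranges that do not overlap. Wnk4, a kinase that controls sodium chloride transport in the distal nephron, had 22 to 39 counts and then 61 to 87 (log2 1.44 ± 0.19 SE, edgeR adjusted p = 3.03e-05). Myo18a, an unconventional myosin, went from 175–231 counts (median 194) to 411–539 (median 491), and Lasp1, an actin-binding LIM protein, from 100–151 to 208–354. Slc28a1, a nucleoside transporter, went from 68–113 counts to 139–260. Rfng, a fringe glycosyltransferase that modifies Notch, Pacsin2, a membrane-bending protein, Map1s and Hmcn2 were the others of the 9 given here, with rises of 1.13 to 1.29 on the log2 scale. Transcript GC was 52.7% to 64.1% in the 9 genes, all above the median of tested genes, 50.1%.

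Mpst, an enzyme that makes hydrogen sulfide from mercaptopyruvate (chr15:78406416-78414013), had 1171 to 1309 counts at 10 ng and 346 to 459 at 100 pg (median 388), a fall of log2 -1.70 ± 0.07 SE (edgeR adjusted p = 1.19e-11) although its GC content is 58.4%. Smco4 fell from 694–849 counts to 203–331, with a GC content of 56.5%. Marf1, an RNA-binding protein, went from 272–358 counts to 71–124, and Abhd2, a serine hydrolase, from 152–195 to 41–83. Bmpr1b, a bone morphogenetic protein receptor, went from 58–113 counts to 4–47. The largest fall was that of Nat8f6, with 182 to 197 counts at 10 ng (median 186.5) and 23 to 39 at 100 pg (median 29). Its log2 fold change was -2.69 ± 0.13 SE (edgeR adjusted p = 1.02e-10). Nat8f7 and Nat8f3, members of the same cluster of N-acetyltransferase genes on chromosome 6, fell by 1.82 and 1.59 on the log2 scale. These 3 are near copies of each other, and the pseudogenes Cbx3-ps6 and Gm12895 resemble their parent genes. Reads that match copies equally were left out, so the values of these genes are uncertain. All 6 libraries of one input lay on one side of all 6 of the other in each of these 19 genes, as the rule asked.

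**Figure D4:**
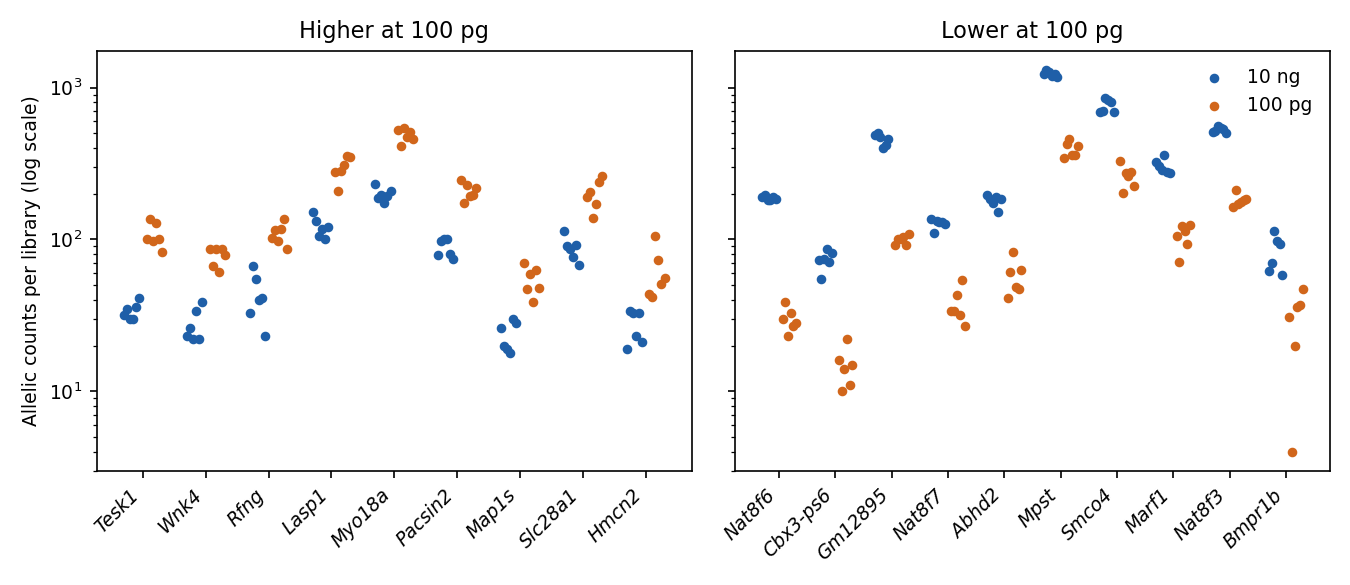
Allelic counts per library on a log axis for 9 genes with the largest rises (left) and the 10 with the largest fall (right) at 100 pg, blue for 10 ng and orange for 100 pg, 6 points each. Tesk1 lies at 30 to 41 and 83 to 136 counts, and Mpst at 1171 to 1309 and 346 to 459.

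No nephron segment was lost at 100 pg as a programme, and its markers moved in both directions. Of 22 proximal tubule markers tested, 9 were higher and 8 lower, with a median log2 fold change of 0.02. Over all genes tested the shares were 8.84% higher and 6.98% lower, and 25.3% and 22.8% at NEBNext means of 1000 or more. The summed level of the proximal tubule markers was 48215 to 48497 CPM at 10 ng and 48927 to 49882 at 100 pg. Slc34a1, the phosphate cotransporter, rose from 39702–40456 counts to 47661–52028 without overlap (log2 0.25 ± 0.02 SE, edgeR adjusted p = 1.08e-08). Pck1, the key enzyme of gluconeogenesis, rose from 2907–3119 counts to 4389–5344, also without overlap (log2 0.64 ± 0.04 SE, edgeR adjusted p = 7.49e-10). Cyp4b1 had the largest rise, 1.01, from 218–250 counts to 453–527. The organic anion transporters Slc22a6 and Slc22a8 rose by 0.32 and 0.25. Ass1, an enzyme of arginine synthesis, fell from 675–738 counts to 494–573 (log2 -0.45 ± 0.05 SE, edgeR adjusted p = 7.78e-06). Lrp2, the endocytic receptor megalin, fell by 0.14, and Acsm2 by 0.18.

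The calls of Napsa and Kap are of another kind. Kap had 46913 to 47105 counts at 10 ng and 46896 to 46926 at 100 pg, a variance of 0.085 and 0.0036 of the mean, far under what counting error alone gives. Among 547 genes with at least 2000 counts in both groups, 6 given here had a variance of at most 0.3 of the mean in both, against medians of 2.26 and 7.50 times the mean. They are Napsa, Kap, Gpx3, Ftl1, Ndufa4 and Cox8a. Cox8a had 7999 to 8008 counts at 10 ng and 7991 to 8008 at 100 pg. The mean counts of these 6 genes differed between inputs by -0.18% to 0.67%, while the mean total was 3.50% higher at 100 pg, and all 6 were called lower, by 0.04 to 0.06 on the log2 scale. These calls thus came from near-equal counts set against larger totals, and with the curve on GC the log2 values of Kap and Ndufa4 were 0.05 and 0.04. The cause of the small variance was not tested, and this group was picked after its values were seen.

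In the thick ascending limb, which reabsorbs salt, 2 of 10 markers were higher and 2 lower. Counts of 1 or 2 members, here and in the next segments, are to be read against the 8.84% higher and 6.98% lower of all genes tested, and the 25.3% and 22.8% of the most abundant class. Umod, the urinary protein uromodulin, rose from 3598–3838 counts to 4123–4559 (log2 0.18 ± 0.03 SE, edgeR adjusted p = 2.40e-04), and Slc12a1, the cotransporter blocked by loop diuretics, fell by 0.09, a call lost with the curve on GC. In the distal convoluted and connecting tubule 2 of 7 were higher and 1 lower, with Slc12a3, the thiazide-sensitive cotransporter, up by 0.27 and Wnk4 as above. Principal cells of the collecting duct had 2 of 8 higher and 1 lower. Aqp2, the vasopressin-regulated water channel, rose from 10502–10874 counts to 13909–14781 (log2 0.36 ± 0.02 SE, edgeR adjusted p = 2.13e-10) and Aqp3, on the basolateral side, fell from 507–640 counts to 377–506. The summed level of the principal cell markers was 2424 to 2509 CPM at 10 ng and 2904 to 3054 at 100 pg. Aqp2 held most of this sum and of its rise, with means of 10737.5 and 14280 counts. The next highest were Hsd11b2, with means of 1476 and 1755.5 counts, and Aqp4, with 1504 and 1453.5. Over the 8 members tested the median log2 fold change was 0.08. Intercalated cells, which handle acid, had 2 of 10 higher and 1 lower.

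Markers of rarer cell types were detected at both inputs. Podocytes, the filter cells of the glomerulus, had 3 of 12 markers higher and 1 lower, where all genes tested had 8.84% higher and 6.98% lower. Several counts in these smaller lists lie near those shares. Col4a4, a collagen of the glomerular basement membrane, rose from 333–431 counts to 590–841 (log2 0.85 ± 0.08 SE, edgeR adjusted p = 1.21e-06). Nphs1 (nephrin) rose by 0.61 ± 0.19 SE and Wt1 fell by 0.76 ± 0.25 SE, both with overlapping CPM ranges. Both calls were lost without 10 ng replicate 1, 4 or 5 or 100 pg replicate 4, 5 or 6, that of Nphs1 also without 100 pg replicate 1, and that of Wt1 also without 10 ng replicate 2, 3 or 6 or 100 pg replicate 3. Among 16 endothelial markers, 2 were higher and 2 lower. Plvap, a protein of fenestrated endothelium, rose from 1063–1144 counts to 1754–2058 (log2 0.73 ± 0.04 SE, edgeR adjusted p = 2.01e-09), while Pecam1 and Ptprb fell by 0.39 and 0.56. Of 13 stromal and vessel wall markers, Cspg4 rose by 0.79 and the pericyte marker Rgs5 fell by 0.79. Immune markers had 1 of 12 higher (the class II gene H2-Ab1, by 0.20) and 1 lower (H2-Aa, by 0.16, with overlapping ranges). The call of H2-Aa was lost without 10 ng replicate 1, 3, 4 or 6 or 100 pg replicate 2, and those of both genes with the curve on GC. In bulk RNA, fewer cells of a type and less RNA per cell cannot be told apart, but here both groups held the same RNA.

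Members left detection at 100 pg in several lists. Of 277 solute carriers with a count in every 10 ng library, 5 were at 0 in at least 3 of the 100 pg libraries, as were 4 of 302 Zfp genes, 4 of 41 cytochrome P450 genes, 1 of 29 collagens and 1 of 13 histone genes, against 2.62% of all genes. No listed nephron, podocyte, vessel, stromal or immune marker with a count in every 10 ng library was lost in this way. Of 9 cell cycle genes with a count in every 10 ng library, 4 had one in every 100 pg library, and 2, Mki67 and Ccnb1, were at 0 in 3 of the 6, with 10 ng means of 5.17 and 2.17 counts. From 10 to 13 cell cycle genes were seen per 10 ng library and 6 to 12 per 100 pg library. The T cell marker Cd3d, with a mean of 5.67 counts, was missed in 2 of the 100 pg libraries and had up to 22 counts in the others. Sox10, a glial factor, was seen in 3 of the 10 ng libraries, with at most 4 counts, and in none at 100 pg. Immune markers per library numbered 18 to 21 and 15 to 20. Blood, adipocyte, urothelium and nerve markers had 1 call among 14 tests (Hba-a2, higher, a near copy of Hba-a1, which had 0 counts). Cytochrome P450 genes per library numbered 47 to 50 and 38 to 43, without overlap, as the number of all genes detected also did not overlap (15871 and 14831 on average).

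Among gene families, solute carriers had 62 of 260 members higher (23.8%) and 22 lower, and their summed level was 40020 to 40497 CPM at 10 ng and 43115 to 43791 at 100 pg. Their median GC, 50.5%, was close to that of all tested genes, and with the curve on GC 44 were higher and 13 lower. Slc27a1, a fatty acid transporter, rose from 30–42 counts to 66–96, and the zinc transporter Slc39a1 fell from 183–220 counts to 33–97. Cytoplasmic ribosomal proteins had 0 of 64 higher and 19 lower. With the curve on GC 2 were higher and 21 lower. Their median log2 fold change was -0.08 and their summed level 11799 to 12072 CPM and then 11161 to 11533. Rps12 fell from 366–410 counts to 242–316, and Rpl4 from 2419–2554 to 1895–2097. Ribosomal protein genes have many processed copies, and since only unique reads were kept, reads that match a copy equally were left out. The respiratory chain had 3 of 71 higher and 19 lower, Cox8a and Ndufa4 among the latter. Atp5b, the beta subunit of ATP synthase, rose from 9560–9910 counts to 10694–11563, and Atp5g3, a subunit of its membrane ring, fell from 6276–6541 to 5160–5904. Collagens had 5 of 20 higher and 0 lower, among them Col4a2 and Col18a1 of basement membranes, and 3 higher with the curve on GC, their median GC being 55.4%. Immediate early genes had 4 of 13 higher, Zfp36 by 0.90 and Junb by 0.46 with ranges apart, and 2 with that curve. Zinc finger genes named Zfp had 16 of 257 higher and 5 lower, and 10 tested histone genes had 0 calls. The edgeR background for these counts is the 8.84% higher and 6.98% lower of all genes. At NEBNext means of 1000 or more it is 25.3% and 22.8%. The share called rose with abundance, and the families were not matched for it.

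AI changed in few genes. Of 10020 genes whose total reached 10 counts in each of the 12 libraries, 66 (0.659%) passed the edgeR test of the allele by input term, 32 with a larger maternal share at 100 pg and 34 with a smaller one. Without any one of the 10 ng libraries the number was 30 to 34. In 53 of the 66 (0.529% of genes tested) the AI ranges did not overlap, against 1.16% of genes tested with or without a call. Gm2a, the activator protein of GM2 ganglioside breakdown (chr11:55098115-55113029), had an AI of 0.64 to 0.68 at 10 ng and of 0.77 to 0.81 at 100 pg (edgeR adjusted p = 9.60e-08). Its mean maternal count went from 1587 to 1248 and its mean paternal count from 816 to 319, so that both alleles were lower in mean. Yipf4, a Golgi protein, went from 0.67–0.81 to 0.83–0.91. Ptges3, a co-chaperone of Hsp90, went from 0.65–0.69 to 0.74–0.86, with paternal counts of 118 and 34.8. Kdelr2, a receptor that returns proteins to the endoplasmic reticulum, and Nploc4, a cofactor of the p97 ATPase, were the other 2 with the largest rises.

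Among genes with no library under 100 counts, smaller maternal shares were led by Lrba, at 0.40 to 0.46 and then 0.19 to 0.33. Its mean maternal counts were 109 and 53.7 and its mean paternal counts 145 and 162. Cd151, a tetraspanin, had 0.35 to 0.39 and then 0.20 to 0.27 (edgeR adjusted p = 1.86e-05). Its mean paternal counts were 1392 and 1713 and its maternal counts 829 and 514, with totals of 2220 and 2227. Slc16a14 went from 0.51–0.56 to 0.32–0.44, with mean maternal counts of 622 and 319 and paternal counts of 548 and 506. Noc2l and Pllp completed the 5. The call of Nploc4 was lost without any one library, those of Noc2l and Pllp without any one 10 ng library or most 100 pg libraries, and that of Kdelr2 without any one 10 ng library but replicate 2, all in the same direction. Pooled NEBNext AI was 0.59 for Gm2a, 0.43 for Cd151 and 0.60 for Slc16a14. It was nearer to the 10 ng than to the 100 pg mean in all 10 genes but Ptges3. These genes were chosen for their difference between the inputs and the kit differs, so this does not show which input is nearer the true AI. Marf1 had a larger fall in AI than Lrba, from 0.59–0.65 to 0.31–0.51 (edgeR adjusted p = 0.0139). Its 71 counts in 100 pg replicate 2 kept it out of the 5. Its pooled NEBNext AI was 0.44, beside means of 0.63 at 10 ng and 0.43 at 100 pg.

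**Figure D5:**
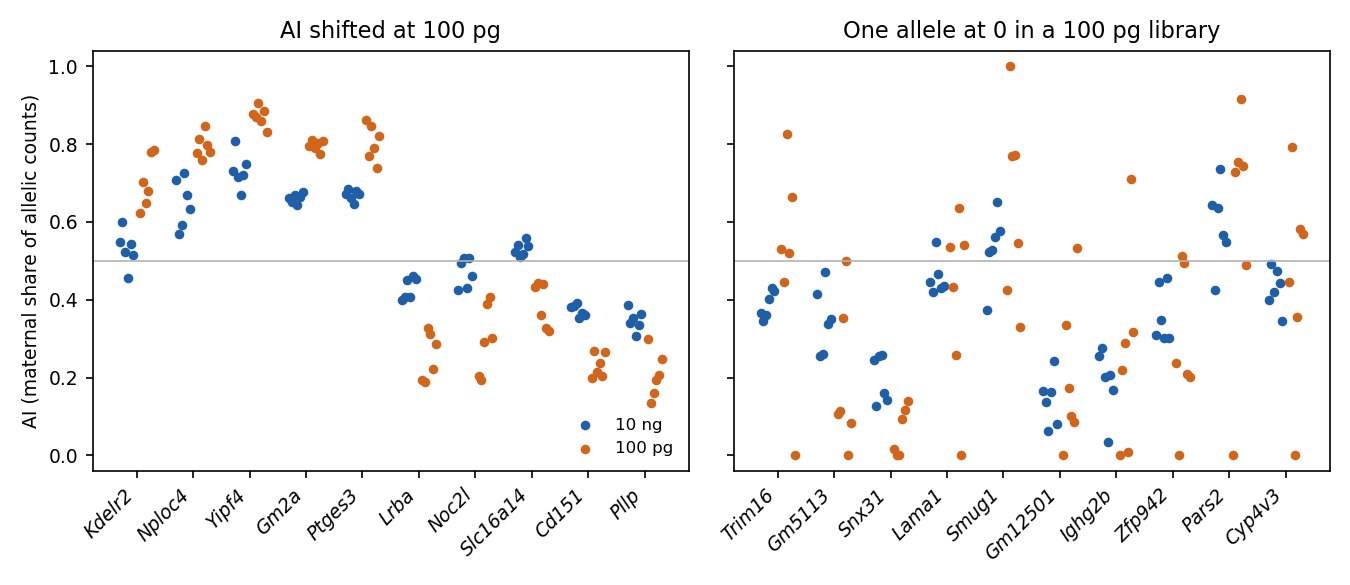
AI per library, blue for 10 ng and orange for 100 pg. Left, the 5 genes with the largest rise and the 5 with the largest fall in AI where no library had under 100 counts. Right, the 10 most abundant genes with one allele at 0 in a 100 pg library. On the left all 6 libraries of one input moved together, as for Gm2a from 0.64–0.68 to 0.77–0.81. On the right the 100 pg libraries scatter, as for Trim16 from 0.00 to 0.83.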

How the data were processed

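The authors aligned single-end reads to 129S1 and CAST versions of GRCm38 with STAR 2.5.4a, kept unique reads, drew equal numbers per experiment, counted alleles at SNPs with SAMtools and summed them over merged exons per gene. The deposited values are raw counts, without molecular identifiers, and a read over several SNPs counts at each. Overlapping exons were left out upstream, and X genes have 0 counts.

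Maternal and paternal counts were added per gene. Abundance was tested with edgeR 4.0.16 (quasi-likelihood, TMM, filterByExpr, 11690 genes) in R 4.3.3, and AI as the allele by input term with library terms (10020 genes). Both were adjusted by Benjamini-Hochberg over all genes tested. Per-library shares were tested by two-sided exact permutation (scipy 1.17.1). Scripts were tested on simulated data. Alternatives were DESeq2 1.42.0, other scalings, filters, classes and count minimums, thinning, a replicate block and each library left out. Added after seeing the data were limma 3.58.1 (voom with a variance per group) and curves on GC content and transcript length.

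Named genes are the 10 largest rises and falls described above, the 10 lost and 10 gained genes and the 10 allele dropout genes with the highest counts (10 ng means for lost and allele dropout genes), the 5 largest rises and falls in AI (ranges apart, no library under 100 counts), the 5 largest gains in SD with means of at least 100, and list members. A few genes that these rules name are not reported here. Members and lists were chosen with earlier results of these data known. Annotation matched 35449 of 37315 gene IDs. Floors and binomial values cover counting error only, and take counts as independent although a read over several SNPs counts at each.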

Additional observations from a re-analysis of the deposited data

Results flagged for a closer look

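In 25 of 299 groups of 6 libraries (8.36%) 1 library stood apart from the other 5 by Dixon's gap criterion, which chance alone meets in about 1 in 20 groups. Genes named for loss or gain were chosen for libraries at 0, so that a lone high library is built into their choice, and the chance share is no yardstick for them or for the total. In the 100 pg libraries, Gnpda2 had 42 counts in replicate 1 (others 0 to 12), Paqr3 80 in replicate 3 (0 to 20), Klhl31 52 in replicate 4 (0 to 9), Fut10 34 in replicate 1 (0 to 7), Gcnt3 23 in replicate 6 (0 to 7) and ENSMUSG00000093098 4 in replicate 5 (0 to 1). At 10 ng, Gcnt3 had 46 in replicate 2 (6 to 14) and Mtus2 25 in replicate 1 (11 to 16). Among the gained genes, Gm12727 had 3 counts in 10 ng replicate 5, Gm15519 3 in replicate 1 and Gm12778 4 in replicate 1 (others 0 to 1 each).

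Of the genes with a shift or a list role, Col18a1 had 623 counts in 10 ng replicate 3 (others 496 to 542) and Ass1 738 in 10 ng replicate 1 (675 to 690). H2-Aa had 3206 counts in 100 pg replicate 1 (3789 to 4083) and Egr1, an immediate early transcription factor, 29 in 100 pg replicate 6 (59 to 72). The AI of Lama1 was 0.549 in 10 ng replicate 3 (0.420 to 0.467). Of the genes with little variance, Napsa had 48475 counts in 100 pg replicate 5 (48205 to 48292) and Gpx3 23866 in 100 pg replicate 3 (23929 to 23964). Summed histone CPM was 1395 in 100 pg replicate 2 (1523 to 1583), and summed cytochrome P450 CPM was 5694 in the same library (5469 to 5552).

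Gene dropout at 100 to 300 counts was 0.0871% in 100 pg replicate 1 (others 0% to 0.0290%). Allele dropout at 5 to 10 counts was 24.8% in 10 ng replicate 2 (27.9% to 29.0%), and with at least 10 counts 7.78% in 10 ng replicate 6 (4.36% to 5.08%). At 300 to 1000 counts it was 0.0401% in 100 pg replicate 5 and 0% in the others, with and without the minimum.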

How the results depend on the processing

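Abundance calls numbered 1464 (829 higher, 635 lower) to 1883 (at most 1068 higher, 830 lower) with single libraries left out, 2121 with DESeq2, 1572 with the replicate block and 1525 with the curve on GC. That curve alone turned the direction of Uqcrc1 (log2 -0.0614), Ndufa4 (0.0429) and Kap (0.0455). AI calls numbered 102 (56 lower) with DESeq2, 28 (12 higher, 16 lower) with the replicate block, and 30 to 66 (13 to 26 higher, 16 to 40 lower) with single libraries left out. The replicate numbers were not taken to pair the samples, since same-numbered libraries had correlations of only -0.027 to 0.035, although 4 of 6 correlated best with their own number, a hint from the data and not the design. With classes from the SMARTseq libraries, gene dropout at 30 to 100 counts differed by 0.0624 points and allele dropout at 2 to 5 counts by 0.189, and with a biallelic window of 0.3 to 0.7 the latter was -1.72. The difference in genes with at least 10 counts was 28.2 to 46.2 without single libraries and -17.3 when thinned. Without single libraries, genes at 0 in at least 4 libraries of 100 pg numbered 85 to 213 and in all of them 16 to 24, and gained genes 9 to 35 (at least 3), 0 to 9 (at least 4) and 0 to 1 (all). The ratio of the SD of AI at 2 to 5 counts was 0.973 to 1.31 without single libraries, with 0.973 without 100 pg replicate 3 and 1.00 without replicate 4. The causes were not tested. Of the summary results, 514 other values kept their direction and call. Low counts limit what can be seen of single genes at 100 pg, where a gene under 10 counts at 10 ng was often at 0, and AI there rests on few reads.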
